A study of Mus musculus with 11 samples.

Results

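Wnt signalling was followed through 47 genes that code for its ligands, receptors, inhibitors, inner transducers and feedback genes, in bone-derived mesenchymal stem cells (MSCs) from mice. MSCs belong to the bone stroma and can give rise to osteoblasts, which build bone, and to adipocytes. The 47 genes were taken by symbol from a list of pathway genes, and all 47 were found among the 28222 genes of the count table.

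Polyadenylated RNA was sequenced in 11 libraries, and all cells were kept at 2% oxygen. The labels give an age and a batch for each library: 4 young libraries of batch A (A young), 2 young libraries of batch B (B young), 2 old libraries of batch B (B old) and 3 old libraries of batch C (C old). Young mice were 3 to 5 months and old mice 18 to 22 months old. Strain, sex, treatment and the number of animals behind a library are not given in the labels of these samples, and nothing states that libraries came from separate animals, so that p-values measure only the spread between these libraries. Age and batch can be separated only in batch B, which rests on 2 libraries per age.

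In the best known branch of the pathway, a secreted Wnt ligand binds a Frizzled receptor together with the co-receptor LRP5 or LRP6. This stops the destruction complex, in which APC and the axins hold β-catenin for degradation, and β-catenin then acts with TCF/LEF factors on target genes. Other branches run through ROR and RYK receptors, and secreted inhibitors, such as members of the SFRP and DKK families, keep ligands or co-receptors away. In bone, Wnt signals are known to favour osteoblasts over adipocytes and to raise bone mass.

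Library totals ranged from 11969336 to 20315934 counts, so that 3 counts, taken as the lowest detectable level, correspond to 0.156 to 0.253 CPM (counts relative to the library total, with totals scaled by TMM factors). Over the 46 genes of the list with enough counts for the age test, log2 CPM values differed, as a root mean square, by 0.50 between both B young libraries and 0.42 between both B old libraries, against 0.54 to 0.85 between young and old libraries of batch B. Pairs of A young libraries differed by 0.278 to 0.54. The distance between young and old libraries of batch B averaged 0.68, against 0.57 over all genes. The distance from A young to C old averaged 1.01, against 0.988 over all genes. Between batches at the same age, distances averaged 0.802 from A young to B young (0.682 over all genes). From B old to C old they averaged 0.856 (1.06 over all genes). By a chi-square over genes of the whole count table, B young replicate 1 and replicate 2 differed more than other libraries of one group (52.3 per gene against at most 23.7). By the distance over the 46 genes they did not, since A young pairs reached 0.54. For the comparisons that use the B young libraries, the counts of listed genes called, and values of some of these genes, are given with and without each. Other results that rest on the B young libraries are given with both only.

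The defining markers of the labelled cells, *Pdgfra* and *Ly6a* (the genes of CD140a and Sca-1), were found in every library, with a sum of 539 to 973 CPM. Leukocyte markers were present although the sort of the study removes CD45-positive cells. The sum of 12 leukocyte markers was 731 to 1634 CPM in A young, 410 and 839 CPM in B young, 846 and 1206 CPM in B old and 145 to 169 CPM in C old libraries. *Ptprc*, the gene of CD45, lay between 3.47 and 22.2 CPM. The sum of 7 osteoblast markers was 253 to 303 CPM in A young, 203 and 226 CPM in B young, 362 and 390 CPM in B old, and 482 to 677 CPM in C old. The sum of 5 adipocyte markers was 162 to 197 CPM in C old and at most 83.4 CPM in the other libraries. The osteoblast sums did not overlap between the groups of any comparison below, whereas the leukocyte and adipocyte sums overlapped in some. The part of these markers in the results was not tested. In bulk RNA, fewer cells of a type and less RNA per cell cannot be told apart.

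Most parts of the pathway were expressed at 2% oxygen, with genes listed as secreted inhibitors and the gene of β-catenin as the most abundant transcripts. To compare genes, levels were divided by the length of the longest transcript and averaged over the 4 groups (CPM per kb). *Dkk3*, listed with the inhibitors as a member of the Dickkopf family, reached 231 CPM per kb, *Sfrp1* 193 and *Sfrp2* 183. These lay above at least 98.2% of the genes tested. *Ctnnb1*, which codes for β-catenin, reached 128 CPM per kb. The receptors with the highest levels were *Ryk* with 76.0, *Fzd1* with 49.3, *Lrp6* with 39.2 and *Fzd2* with 29.7 CPM per kb. The plot of levels by role shows that only a few genes of each class carried most of its transcripts.

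**Figure D1:**
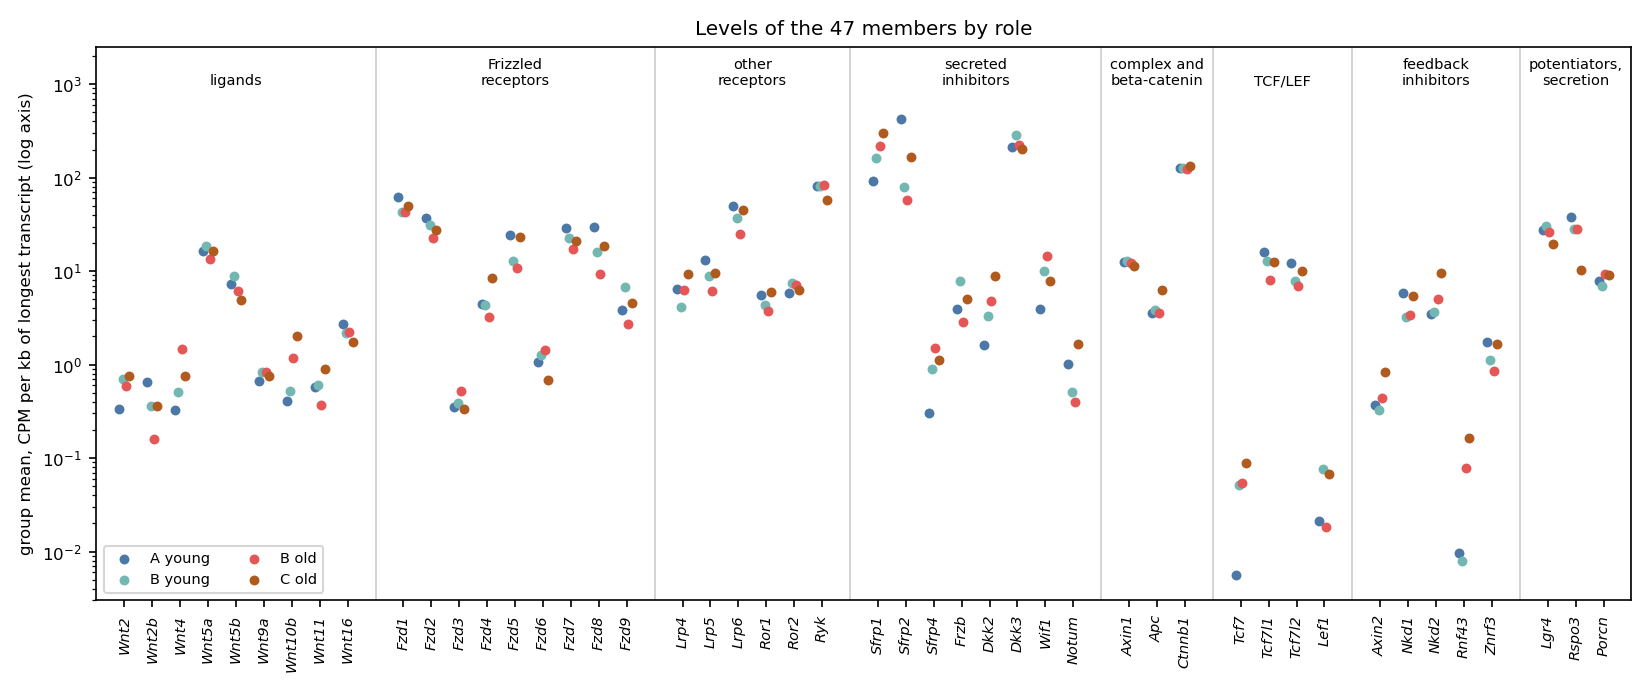
Group means of the 47 genes in CPM per kb of the longest transcript (log axis), ordered by role, with one point for each of the groups A young, B young, B old and C old. *Dkk3*, *Sfrp1*, *Sfrp2* and *Ctnnb1* have the highest means over the groups (128 to 231 CPM per kb), whereas *Tcf7*, *Lef1* and *Rnf43* lie at the lower end in every group.

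Among the 9 ligands, *Wnt5a*, which mostly acts through the branches that do not need β-catenin, had the highest level with 16.2 CPM per kb, followed by *Wnt5b* with 6.80 and *Wnt16* with 2.23. The other 6 ligands lay between 0.38 (*Wnt2b*) and 1.03 CPM per kb (*Wnt10b*). *Wnt5a* was found at 113.5, 119.6, 109.2 and 113.7 CPM in A young, at 151 and 107 CPM in B young, at 85.6 and 103 CPM in B old, and at 108, 124 and 116 CPM in C old. Only the B old libraries lay below all others, and the highest and the lowest library differed 1.77-fold. An antisense gene, *Gm2670*, shares 358 exon bases with *Wnt5a*, and it is not stated whether strand was used in counting.

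Among the 9 Frizzled receptors, *Fzd1* was highest and *Fzd3* lowest (0.40 CPM per kb). The level of *Fzd1* was 213, 338.5, 244 and 254 CPM in A young, 202 and 157 CPM in B young, 164 and 193.5 CPM in B old, and 203, 209.5 and 210.1 CPM in C old. A young libraries lay above all others. Of the other receptors, *Ryk*, a receptor with an inactive kinase domain, was found at 275, 243, 249 and 227 CPM in A young, at 265.5 and 234 CPM in B young, at 267 and 251 CPM in B old, and at 189.9, 166.5 and 173 CPM in C old. All C old libraries lay below the rest. *Lrp4*, *Lrp5*, *Ror1* and *Ror2* had levels of 4.89 to 9.42 CPM per kb.

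*Ctnnb1* and *Axin1* varied least of the 47 genes over the libraries, whereas *Apc*, of the same complex, had a 2.35-fold range. *Ctnnb1* was found at 449.7, 474.5, 462 and 465 CPM in A young, at 471 and 451 CPM in B young, at 444 and 453 CPM in B old, and at 484, 468 and 488 CPM in C old, so that the highest library was 1.10-fold above the lowest. *Ctnnb1* shares 782 exon bases with *Mir7090* and *Ulk4*. *Axin1*, a scaffold of the destruction complex, lay at 12.2 CPM per kb with a 1.16-fold range over the libraries. Of the TCF/LEF factors, *Tcf7l1* (12.3 CPM per kb) and *Tcf7l2* (9.23 CPM per kb) were expressed. *Tcf7* had 0 to 4 counts and *Lef1* 0 to 8 counts per library, near or below the lowest detectable level. *Rspo3*, a secreted R-spondin that strengthens Wnt signals, and its receptor *Lgr4* lay at 26.3 and 25.9 CPM per kb. *Nkd2*, a feedback inhibitor inside the cell, was the highest of its class with 5.43 CPM per kb, and *Rnf43*, a ubiquitin ligase that removes Frizzled receptors, had 0 to 15 counts per library.

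The first question was whether genes of the pathway differed between young and old MSCs of one batch. In batch B, the Frizzled genes *Fzd9* and *Fzd8* and the factor *Tcf7l1* were lower in old than in young MSCs, and the ligand *Wnt4* was higher. Of 46 genes tested, 4 passed (8.70%; 1 higher and 3 lower), whereas 2.23% of all 16132 genes tested did so (0.694% higher and 1.54% lower). The test was edgeR's quasi-likelihood test on all 11 libraries with batch as a covariate and Benjamini-Hochberg adjustment over all genes tested. The age difference rests on the batch B libraries, whereas the spread was estimated over all 11 libraries. In the fit to batch B alone *Fzd9* passed (adjusted p = 0.0326), but *Wnt4* (0.0716), *Fzd8* (0.11) and *Tcf7l1* (0.22) did not. In the fit to all libraries, scaling by total counts gave 2 higher and 2 lower, with the share of all genes under that scaling not given.

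The 5′ regions of the genes that passed are shown because it is their transcripts that differed with age, and those of *Fzd7* and *Wnt11* because they hold a TCF/LEF core motif. The sequences are those of RefSeq for GRCm38.p6, from 250 bases before the RefSeq start and without any base that lies inside the GENCODE gene. They are written 5′ to 3′ on the strand of the gene, and capitals mark the motif. *Fzd8* has no entry. The regions are chr4:137277385-137277488 (plus strand) for *Wnt4*, chr5:135251231-135251297 (minus strand) for *Fzd9*, chr6:72789255-72789295 (minus strand) for *Tcf7l1*, chr1:59481897-59482146 (plus strand) for *Fzd7* and chr7:98834862-98835111 (plus strand) for *Wnt11*.
Wnt4: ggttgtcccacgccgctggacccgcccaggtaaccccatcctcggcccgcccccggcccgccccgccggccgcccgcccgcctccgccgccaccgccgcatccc
Fzd9: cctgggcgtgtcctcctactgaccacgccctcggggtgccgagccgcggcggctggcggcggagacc
Tcf7l1: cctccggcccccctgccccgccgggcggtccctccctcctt
Fzd7: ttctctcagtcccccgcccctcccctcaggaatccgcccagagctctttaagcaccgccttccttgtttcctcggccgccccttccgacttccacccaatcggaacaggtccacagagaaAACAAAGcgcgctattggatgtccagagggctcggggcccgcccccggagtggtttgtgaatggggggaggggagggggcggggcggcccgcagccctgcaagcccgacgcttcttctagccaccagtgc
Wnt11: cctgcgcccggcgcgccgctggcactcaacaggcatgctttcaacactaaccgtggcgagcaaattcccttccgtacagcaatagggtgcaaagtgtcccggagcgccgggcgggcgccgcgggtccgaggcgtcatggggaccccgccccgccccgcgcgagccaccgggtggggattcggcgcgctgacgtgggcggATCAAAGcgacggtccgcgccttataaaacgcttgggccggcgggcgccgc

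The motif was searched as CTTTGAT and CTTTGTT on both strands, in windows from 250 bases before to 50 bases after a start. Of the 47 genes, 30 had an entry, with 40 promoters in all. The motif was found in 4 of these 40 promoters (10.0%), against 9.33% of all 32851 promoters, and the genes were *Wnt5b*, *Wnt11*, *Fzd7* and *Tcf7l2*. The windows of *Wnt4*, *Fzd9* and *Tcf7l1* held neither form.

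*Fzd9* (chr5:135248938-135251230, minus strand), a Frizzled receptor known to act in osteoblasts, was found at 18.9 and 12.1 CPM in B young and at 5.996 and 6.48 CPM in B old. Its levels were 6.70, 8.95, 8.42 and 11.1 CPM in A young and 10.1, 12.1 and 9.29 CPM in C old. Both B old libraries lay below all other libraries and both B young libraries above. The log2 fold change was −1.32 with a standard error (SE) of 0.24 (adjusted p = 0.00922).

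*Wnt4* (chr4:137277489-137299726, plus strand), a ligand with roles in kidney, gonad and bone, was at 1.67 and 2.655 CPM in B young and at 7.48 and 4.88 CPM in B old. A young libraries held 1.496, 1.77, 1.24 and 0.975 CPM, and C old libraries 2.83, 2.815 and 3.92 CPM. The B old libraries were the highest of all, and every old library of either batch lay above every young one. The log2 fold change within batch B was 1.53 (SE 0.32, adjusted p = 0.0177), or 2.89-fold.

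*Fzd8*, a further receptor for β-catenin-dependent signals, was found at 109.9 and 81.8 CPM in B young and at 47.9 and 63.5 CPM in B old. In A young it reached 138.5, 201, 188.5 and 184 CPM, and in C old 109, 115 and 112.5 CPM. A young libraries lay above and B old libraries below all others. The log2 fold change for age within batch was −0.78 (SE 0.18, adjusted p = 0.0284).

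*Tcf7l1* (chr6:72626378-72789254, minus strand), the TCF factor best known as a repressor of target genes, was found at 46.4 and 30.8 CPM in B young and at 24.8 and 24.2 CPM in B old. The A young libraries had 43.1, 50.8, 52.4 and 49.5 CPM and the C old libraries 39.6, 36.2 and 37.7 CPM. B old libraries were the lowest of all. The log2 fold change was −0.66 (SE 0.16, adjusted p = 0.0402). An antisense gene, *Gm15401*, shares 179 exon bases with *Tcf7l1*.

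**Figure D2:**
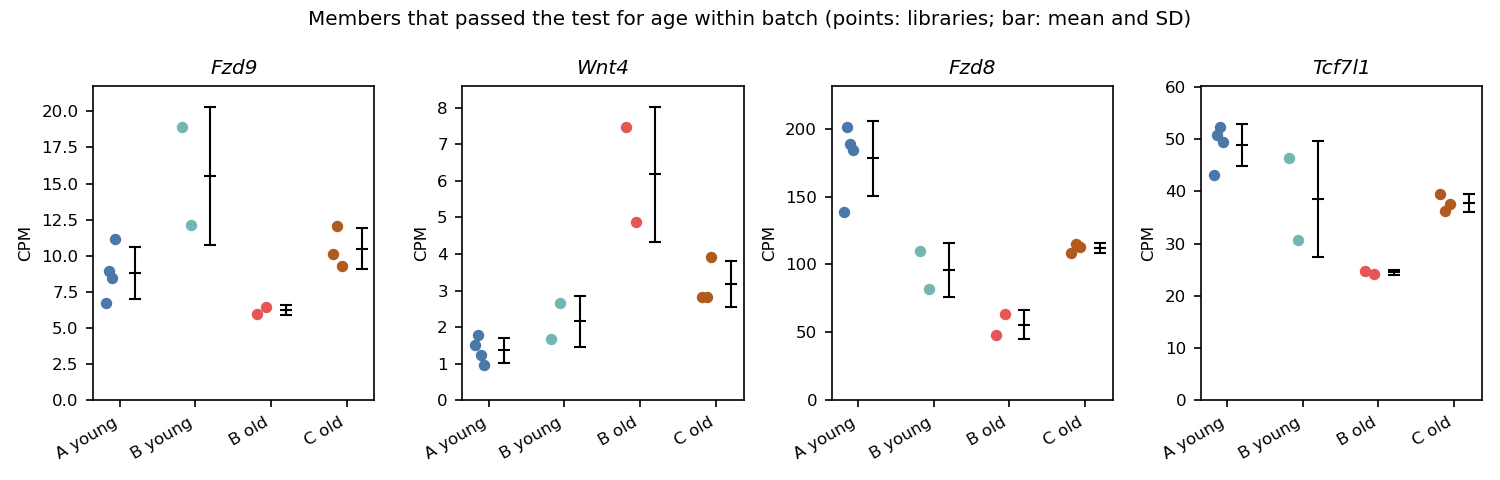
CPM of *Fzd9*, *Wnt4*, *Fzd8* and *Tcf7l1* in the 11 libraries by group (points: libraries; bar: mean and SD; n = 4, 2, 2 and 3). In batch B both old libraries lie below both young libraries for *Fzd9*, *Fzd8* and *Tcf7l1* and above them for *Wnt4*, whereas *Fzd8* is highest in A young.

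These calls rested on single libraries. Without B old replicate 1, edgeR called 0 of the 46 genes (13 at an unadjusted p below 0.05), and adjusted p-values were 0.105 for *Fzd9*, 0.25 for *Wnt4*, 0.32 for *Fzd8* and 0.23 for *Tcf7l1*. Without B young replicate 1, *Lrp4* was the only gene called, and adjusted p-values of the 4 genes were 0.0965, 0.153, 0.212 and 0.308 in the same order. Without B young replicate 2, 15 genes passed (5 higher and 10 lower), among them all 4. Without C old replicate 1 or replicate 3, *Fzd9* and *Wnt4* passed, and *Fzd8* had adjusted p-values of 0.0531 and 0.0551. *Tcf7l1* also passed the threshold in neither the fit without A young replicate 3 (adjusted p = 0.0519) nor those without A young replicate 4 (0.0538), B old replicate 2 (0.161) or each C old library (0.0654 to 0.074). The log2 fold changes of all 4 genes kept their sign in each of these fits. The share of all genes that passed is not given for these fits, so that a change in count need not be particular to the pathway.

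By role, 2 of 9 Frizzled genes, 1 of 9 ligands and 1 of 3 TCF/LEF factors tested passed. For the other receptors and co-receptors 0 of 6 passed in edgeR and limma-trend and 3 in DESeq2 (*Lrp4*, *Lrp5* and *Lrp6*), with 3 at an unadjusted p below 0.05 in each tool. None of the 8 secreted inhibitors passed in any of the 3 tools, with 5 at an unadjusted p below 0.05 in each. The largest difference of this class belonged to *Frzb*, a secreted decoy for Wnt ligands, with 29.65 and 19.3 CPM in B young and 7.34 and 10.6 CPM in B old (log2 fold change −1.45, SE 0.39, adjusted p = 0.0698). It passed in the fit to batch B alone. *Wnt10b*, a ligand known to favour osteoblasts over adipocytes, had a log2 fold change of 1.21 (SE 0.37, adjusted p = 0.104). The values of *Lrp4*, *Lrp5* and *Lrp6* were 0.57 (SE 0.16), −0.53 (SE 0.15) and −0.58 (SE 0.18).

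*Ctnnb1* had a log2 fold change of −0.04 (SE 0.10), *Axin1* of −0.09 (SE 0.10) and *Apc* of −0.11 (SE 0.17). At the other end of the pathway, the target and feedback gene *Axin2* had a value of 0.48 (SE 0.44), *Nkd1* of 0.06 (SE 0.21) and *Nkd2* of 0.47 (SE 0.22), none of which passed. For 27 of the 46 genes (58.7%) both B old libraries lay on one side of both B young libraries, in 10 above and in 17 below, against 39.7% of all genes tested. The median log2 fold change of the 46 genes was −0.14 and that of all genes 0.00. Of 12 mesenchymal stromal markers, 2 were lower in B old, *Pdgfra* (−0.86, adjusted p = 0.00591) and *Nt5e* (−1.34, adjusted p = 0.00932), and 10 had negative log2 fold changes with a median of −0.36 over the list. The sum of these 12 markers was 4861 and 5140 CPM in B young and 3975 and 4324 CPM in B old. All 4 smooth muscle markers lay higher in both B old libraries than in both B young ones, with sums of 2995 and 3577 CPM against 2337 and 2421 CPM, but none passed in edgeR (4 at an unadjusted p below 0.05). *Alpl*, an osteoblast enzyme, was higher in B old (0.98, adjusted p = 0.00287). None of the 12 leukocyte markers passed in edgeR, with 6 at an unadjusted p below 0.05, and all 12 had positive log2 fold changes. The part of these markers in the age differences was not tested.

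The second comparison measured the batch difference in young MSCs. Here the secreted inhibitors differed most: in B young *Wif1*, *Sfrp1*, *Sfrp4*, *Dkk2* and *Dkk3* were higher and *Sfrp2* was lower than in A young, which makes 6 of 8. Of 44 genes tested over the 6 young libraries, 14 passed (31.8%), 6 higher and 8 lower, against 18.1% of all 14840 genes (9.39% higher and 8.71% lower). Scaling by total counts gave 8 higher and 7 lower, and a correction for transcript length and GC content 9 higher and 6 lower. The shares of all genes under these alternatives are not given.

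*Wif1*, a secreted factor that binds Wnt ligands, was found at 10.1, 9.88, 8.26 and 7.80 CPM in A young, at 19.2 and 26.55 CPM in B young, at 32.5 and 33.7 CPM in B old, and at 17.4, 18.7 and 17.6 CPM in C old. A young libraries lay below and B old libraries above all others. The log2 fold change from A young to B young was 1.36 (SE 0.18, adjusted p = 0.00145).

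*Sfrp2*, a secreted Frizzled-related protein, reached 362, 1134, 1060 and 872.5 CPM in A young. In B young it had 179 and 138 CPM, in B old 76.4 and 152 CPM, and in C old 335, 344 and 332 CPM. Every A young library lay above the others, although replicate 1 was close to C old. Its log2 fold change from A young to B young was −2.41 (SE 0.36, adjusted p = 0.00195), the largest of the 44 genes. The antisense gene *Gm26771* shares 347 exon bases with *Sfrp2*.

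*Sfrp1*, of the same family, was found at 356, 422, 457 and 376 CPM in A young, at 715 and 722 CPM in B young, at 706 and 1188 CPM in B old, and at 1489, 1057 and 1396 CPM in C old. A young libraries were the lowest, with a log2 fold change to B young of 0.86 (SE 0.13, adjusted p = 0.00228). *Sfrp4* had 1.11, 0.929, 1.16 and 1.71 CPM in A young, 3.335 and 3.95 CPM in B young, 6.33 and 5.945 CPM in B old, and 5.59, 4.845 and 3.19 CPM in C old. Again A young was lowest, and the log2 fold change to B young was 1.59 (SE 0.30, adjusted p = 0.0054). *Dkk2* and *Dkk3* rose by 1.04 (SE 0.21) and 0.44 (SE 0.13).

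*Dkk3*, the gene with the highest level among those listed as secreted inhibitors, was found at 658, 746, 687 and 761 CPM in A young, at 898.5 and 1011 CPM in B young, at 723 and 779 CPM in B old, and at 649, 739 and 659 CPM in C old. Both B young libraries lay above all others, and the other 3 groups overlapped.

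**Figure D3:**
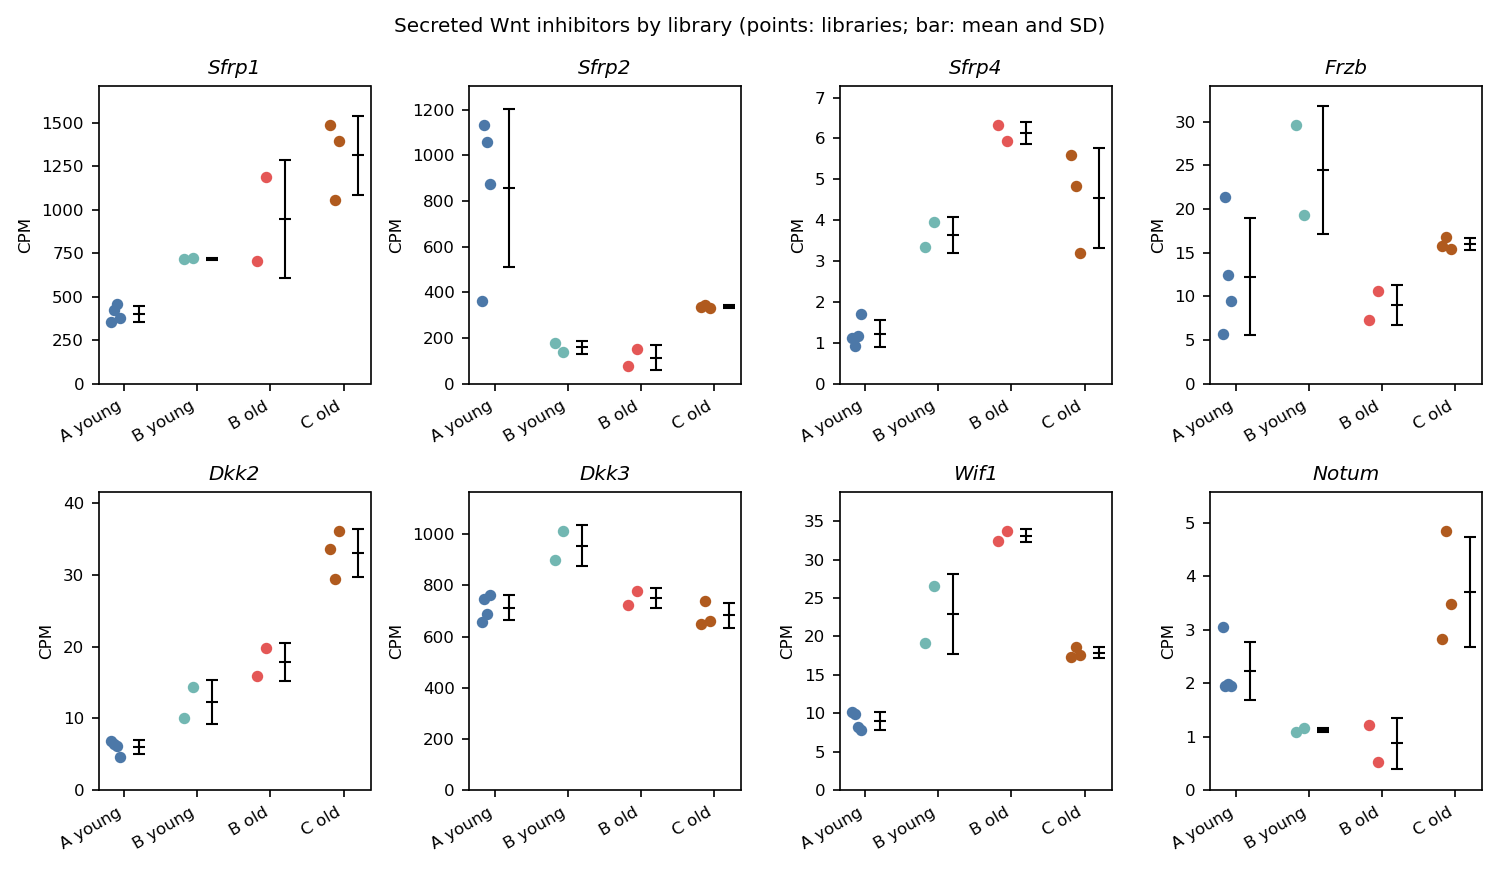
CPM of the 8 secreted inhibitors in the 11 libraries by group (points: libraries; bar: mean and SD; n = 4, 2, 2 and 3). *Sfrp2* is highest in A young, whereas *Sfrp1*, *Sfrp4*, *Dkk2* and *Wif1* are lowest there, and *Dkk2* is highest in C old.

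Receptors were among the genes that fell. *Fzd5*, a Frizzled receptor, was found at 153, 214, 157 and 154 CPM in A young, at 105 and 71.1 CPM in B young, at 72.3 and 78.75 CPM in B old, and at 144.5, 182 and 153 CPM in C old. Batch B lay below the other batches at both ages. The log2 fold change from A young to B young was −0.92 (SE 0.18, adjusted p = 0.00653), and that of *Fzd8* was −0.87 (SE 0.17, adjusted p = 0.00593). *Gm38058* on the opposite strand shares 1233 exon bases with *Fzd5*. *Fzd9* rose by 0.85 (SE 0.22), while *Lrp4*, *Lrp5*, *Tcf7l2*, *Nkd1* and *Znrf3* had log2 fold changes of −0.84 to −0.56. None of the 9 ligands passed in edgeR, limma-trend or DESeq2, with 1, 1 and 0 at an unadjusted p below 0.05. *Lrp4*, *Lrp5* and *Znrf3* did not pass with the length and GC correction (adjusted p = 0.3, 0.446 and 0.119). *Ctnnb1* differed by 0.02 (SE 0.12). Of 12 leukocyte markers, 6 were lower in B young (50%, against 18.1% of all genes), and all 12 had negative log2 fold changes (median −1.12). Of 7 osteoblast markers 3 were lower, and of 5 adipocyte markers 1 was lower. Of 12 mesenchymal stromal markers 2 were higher and 1 was lower. The part of these markers in the batch difference was not tested.

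Here 1 library decided most calls. Without B young replicate 2, 4 genes passed, namely *Fzd9*, *Sfrp1*, *Wif1* and *Sfrp2*, and the adjusted p-values of *Sfrp4*, *Fzd8* and *Fzd5* were 0.0636, 0.0745 and 0.0814. Without B young replicate 1, 18 genes passed (5 higher and 13 lower), and *Fzd9* had a log2 fold change of 0.49 (adjusted p = 0.193). *Fzd9* also missed the threshold without A young replicate 3 (adjusted p = 0.0541), as did *Dkk3*, *Lrp5* and *Znrf3* without several A young libraries (adjusted p = 0.0532 to 0.12). The share of all genes that passed in these fits is not given.

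The third comparison set C old against B old and so measured the batch difference in old MSCs. Genes of most roles were higher in C old, including 4 of 5 feedback genes (*Axin2*, *Nkd1*, *Nkd2* and *Znrf3*), whereas *Rspo3* and *Lgr4* were lower. Of 45 genes tested over the 5 old libraries, 35 passed (77.8%), 27 higher and 8 lower, against 64.7% of all 15651 genes (32.1% higher and 32.6% lower). A correction for length and GC content gave 16 higher and 11 lower, with the share of all genes under it not given. The median log2 fold change of the 45 genes was 0.51 and that of all genes 0.02. With the correction these medians were 0.12 and −0.08. Scaling by total counts moved the median of all genes by more than 0.1, to 0.22 in this comparison and to 0.31 between C old and A young.

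All 9 Frizzled genes passed, 7 higher and 2 lower (*Fzd3* and *Fzd6*), but under the length and GC correction *Fzd1* (−0.09) and *Fzd7* (−0.00251) changed sign and *Fzd2* no longer passed. *Fzd3* passed neither with DESeq2 (adjusted p = 0.05045) nor with total counts (0.0581). In the 4-group fit *Fzd1* (adjusted p = 0.267) and *Fzd2* (0.0515) did not pass. *Fzd5* had the smallest p of all 45 genes, with a log2 fold change of 1.08 (SE 0.10, adjusted p = 1.44e-06), and *Fzd8* followed with 1.01 (SE 0.10, adjusted p = 3.27e-06). *Lrp6*, a co-receptor for β-catenin-dependent signals, was found at 438, 574, 430 and 431.5 CPM in A young, at 416 and 277.5 CPM in B young, at 214 and 250 CPM in B old, and at 396, 414 and 448.5 CPM in C old. B old libraries lay below all others, and the log2 fold change to C old was 0.85 (SE 0.08, adjusted p = 3.09e-06). *Lrp4* and *Lrp5* passed with 0.56 and 0.66, and changed sign under the correction (−0.10 and −0.06). *Ryk* was lower, with −0.56 (SE 0.07).

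Of the 5 genes listed as feedback inhibitors, 4 were higher in C old than in B old and *Rnf43* did not pass (adjusted p = 0.137). Of 12 genes listed as targets of the pathway and tested in this comparison, 4 were higher and 6 lower, with a median log2 fold change of −0.05. *Nkd2* was found at 20.2, 12.75, 12.1 and 11.3 CPM in A young, at 16.3 and 13.0 CPM in B young, at 19.9 and 20.8 CPM in B old, and at 40.7, 35.4 and 38.2 CPM in C old. All C old libraries lay above all others, with a log2 fold change from B old of 0.90 (SE 0.09, adjusted p = 3.65e-06). *Axin2* had 1.89 and 1.87 CPM in B old and 2.83, 4.32 and 3.48 CPM in C old (log2 fold change 0.90, SE 0.26, adjusted p = 0.0102). *Axin2* did not pass with the length and GC correction (adjusted p = 0.0577), and it shares 209 exon bases with the antisense gene *Gm11670*. Among the secreted inhibitors, *Notum*, a secreted enzyme that inactivates Wnt ligands and is itself a target, had 1.21 and 0.534 CPM in B old and 2.83, 4.845 and 3.48 CPM in C old (2.07, SE 0.38). The antisense genes *Myadml2os* and *Notumos* share 918 exon bases with *Notum*.

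*Rspo3* was found at 86.3, 134, 112 and 133 CPM in A young, at 91.9 and 83.9 CPM in B young, at 67.6 and 109 CPM in B old, and at 34.4, 28.0 and 33.1 CPM in C old. The C old libraries lay below all others, with a log2 fold change from B old of −1.47 (SE 0.16, adjusted p = 6.28e-06). *Lgr4* was also lower, with −0.41 (SE 0.08). The antisense gene *Gm48159* shares 404 exon bases with *Rspo3*. *Wif1* fell from B old to C old by 0.89 on the log2 scale (SE 0.09, adjusted p = 2.63e-06), in the opposite direction to *Sfrp2* (1.56, SE 0.20) and *Dkk2* (0.88, SE 0.12). Of the 9 ligands, *Wnt2b*, *Wnt5a*, *Wnt10b* and *Wnt11* were higher in C old (1.16, 0.29, 0.78 and 1.30 on the log2 scale). *Wnt5a* changed sign under the length and GC correction (−0.09). *Wnt4* and *Wnt5b* were lower (−0.97 and −0.33). DESeq2 called 3 of the 9 ligands against 6 in edgeR, without *Wnt2b* (adjusted p = 0.164), *Wnt5b* (0.131) and *Wnt10b* (0.052). *Wnt2b* also missed the threshold with the length and GC correction (adjusted p = 0.125) and *Wnt5b* with total counts (0.349). Of the destruction complex *Apc* passed with 0.80, but not with that correction (adjusted p = 0.149), and *Ctnnb1* and *Axin1* did not pass. All 12 leukocyte markers were lower in C old than in B old, while 5 of 7 osteoblast and 4 of 5 adipocyte markers were higher.

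In this comparison 7 of the 35 calls were lost without at least one library. *Wnt2b* was lost without B old replicate 1 or 2 or C old replicate 1 or 2, *Wnt5a* without B old replicate 1, *Wnt10b* without B old replicate 2 or C old replicate 2, and *Fzd3* without C old replicate 1. *Wnt5b* and *Sfrp1* were lost without B old replicate 1 or C old replicate 1 or 3, and *Fzd1* without B old replicate 1 or C old replicate 2 or 3. Adjusted p-values lay between 0.0552 and 0.331, and without B old replicate 1 the log2 fold change of *Sfrp1* was 0.14 in place of 0.47. For *Sfrp1* the libraries of both groups overlapped.

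**Figure D4:**
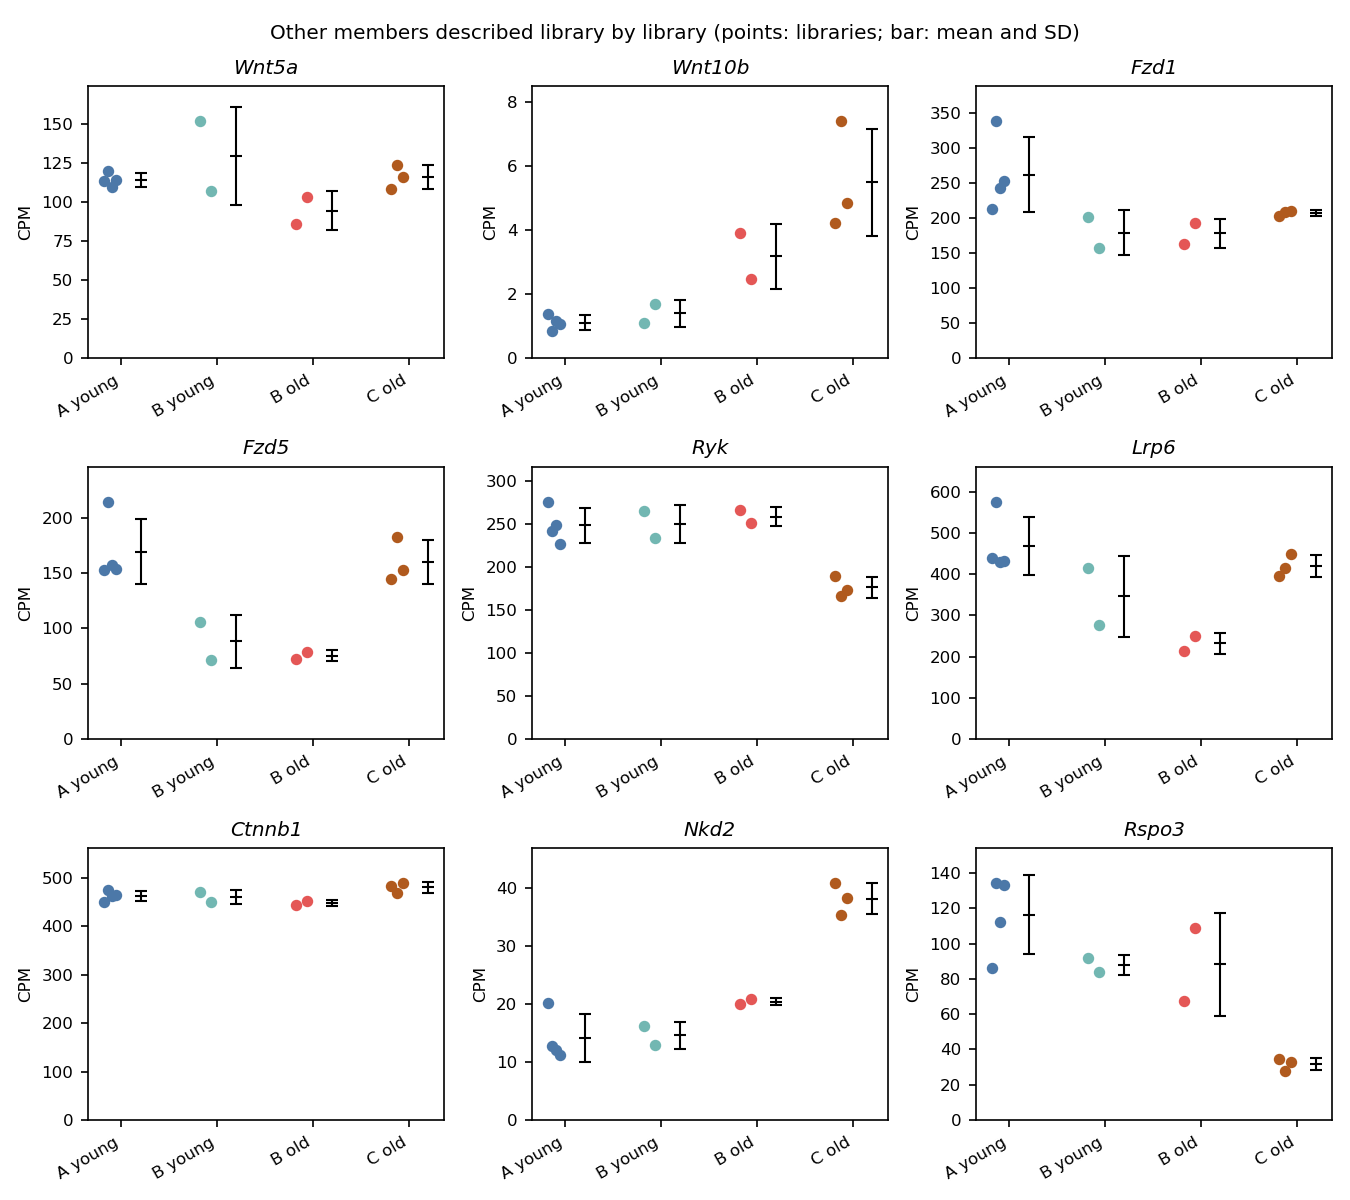
CPM of 9 further genes in the 11 libraries by group (points: libraries; bar: mean and SD; n = 4, 2, 2 and 3). *Ctnnb1* varies 1.10-fold over all libraries, whereas *Nkd2* and *Wnt10b* are highest and *Ryk* and *Rspo3* lowest in C old.

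The fourth comparison set C old against A young. These groups differ in age and in batch, which cannot be told apart here, but they share no library with batch B. *Dkk2*, *Sfrp1*, *Nkd2*, *Wnt10b* and *Wif1* were higher and *Rspo3* was lower in C old, and these were the 6 genes with the smallest p. Of 45 genes tested over 7 libraries, 29 passed (64.4%), 15 higher and 14 lower, against 63.8% of all 15021 genes (32% higher and 31.9% lower), so that the share was close to that of all genes. Scaling by total counts gave 24 higher and 3 lower. The median of all genes also moved under that scaling. The share of all genes that passed with it is not given, so that this change need not be particular to these genes.

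*Dkk2*, a Dickkopf protein that binds LRP5 and LRP6, was found at 6.87, 6.42, 6.11 and 4.63 CPM in A young, at 10.1 and 14.4 CPM in B young, at 16.0 and 19.8 CPM in B old, and at 33.6, 29.4 and 36.1 CPM in C old. A young libraries lay below and C old libraries above all others, with a log2 fold change of 2.51 (SE 0.13, adjusted p = 1.55e-08) or 5.68-fold. *Sfrp1* had a log2 fold change of 1.77 (SE 0.12, adjusted p = 1.12e-07). *Wnt10b* was at 1.385, 0.8445, 1.16 and 1.06 CPM in A young, at 1.09 and 1.70 CPM in B young, at 3.91 and 2.47 CPM in B old, and at 4.24, 7.40 and 4.86 CPM in C old. As for *Wnt4*, every old library lay above every young library, and the log2 fold change from A young to C old was 2.33 (SE 0.26, adjusted p = 6.86e-06). *Nkd2* rose by 1.47 (SE 0.16, adjusted p = 5.6e-06) and *Wif1* by 1.04 (SE 0.12, adjusted p = 7.78e-06), whereas *Rspo3* fell by 1.81 on the log2 scale (SE 0.15, adjusted p = 4.72e-07).

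By role, 7 of 9 ligands passed (4 higher and 3 lower), 5 of 9 Frizzled genes (*Fzd4* higher; *Fzd2*, *Fzd6*, *Fzd7* and *Fzd8* lower), 3 of 6 other receptors (1 higher and 2 lower) and 6 of 8 secreted inhibitors (5 higher and *Sfrp2* lower). Under scaling by total counts *Fzd2*, *Fzd6* and *Fzd7* did not pass, and neither did the lower ligands *Wnt2b*, *Wnt5b* and *Wnt16* or the lower receptors *Lrp5* and *Ryk*. With that scaling *Wnt5a*, *Fzd9*, *Ror1* and *Ror2* passed as higher, and *Fzd9* did so with the length and GC correction too. *Fzd4*, a receptor best known from blood vessels, was found at 22.8, 31.7, 30.8 and 32.9 CPM in A young and at 55.4, 49.7 and 64.65 CPM in C old. All 12 leukocyte markers were lower in C old than in A young, while 6 of 7 osteoblast and 5 of 5 adipocyte markers were higher.

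*Rnf43* passed as well (adjusted p = 0.000586), with 33 counts in the 3 C old libraries and 2 counts in the 4 A young libraries, a ratio of 19.5 with a 95% exact interval of 4.98 to 167 for counting error only. *Wnt5a*, *Fzd5*, *Lrp6*, *Dkk3* and *Ctnnb1* had log2 fold changes between −0.10 and 0.11 and did not pass. *Wnt5a* had a log2 fold change of −0.19 under the length and GC correction (adjusted p = 0.012), against 0.09 without it. Of the 29 calls, 6 were lost without at least one library, with adjusted p-values of 0.053 to 0.153. *Wnt2* was lost without A young replicate 1 or 2 or any C old library, *Wnt2b* without A young replicate 1 or 2 or C old replicate 1 or 3, *Wnt11* without C old replicate 1, *Notum* and *Tcf7l2* without C old replicate 2, and *Wnt16* without C old replicate 3.

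The difference within batch B and that between C old and A young can be set side by side for the same genes. *Wnt4* was higher in the old group of both (1.53 and 1.26), and *Fzd8* (−0.78 and −0.61) and *Tcf7l1* (−0.66 and −0.31) were lower in both. Under scaling by total counts *Tcf7l1* passed in neither. *Fzd9* was lower within batch B (−1.32) but had a value of 0.32 (SE 0.17, adjusted p = 0.111) between C old and A young. Of 45 genes tested in both, 28 (62.2%) had the same sign, against 52.5% of all 15021 genes.

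**Figure D5:**
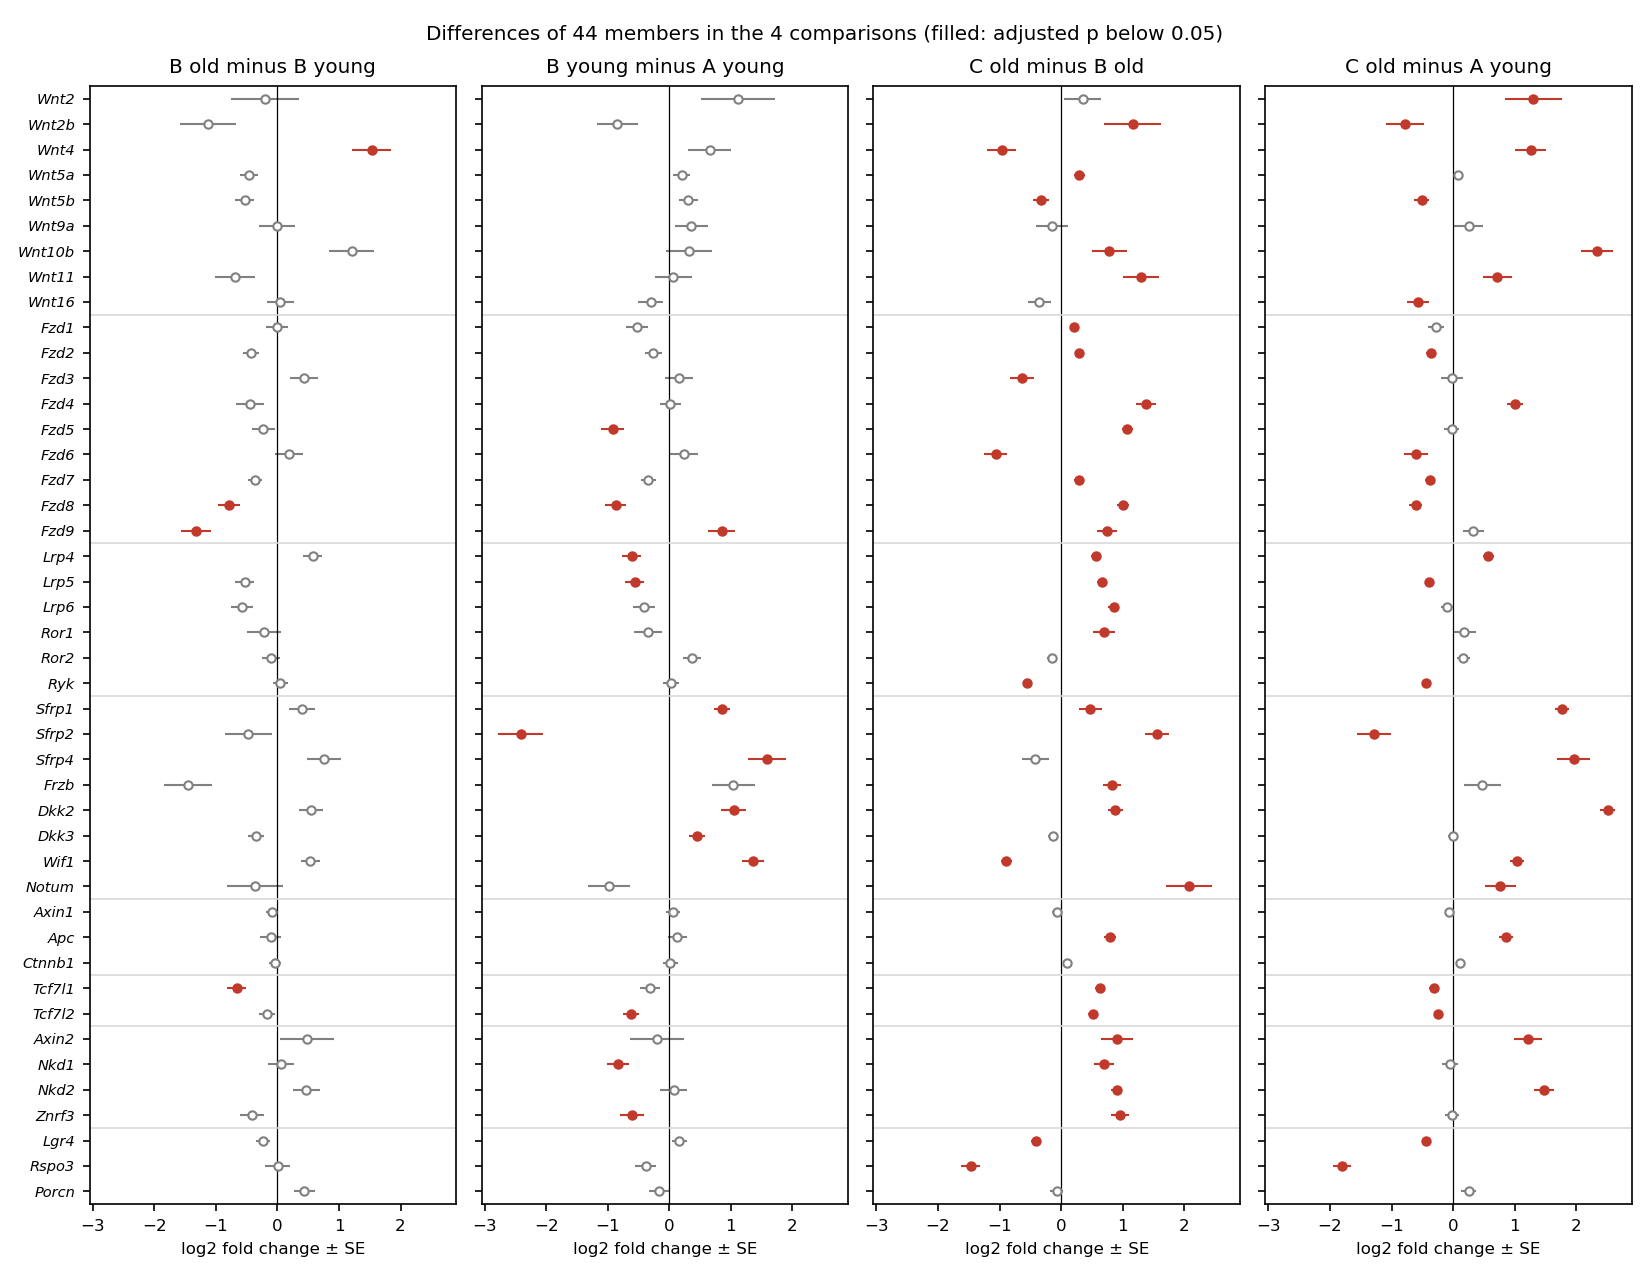
Log2 fold changes with standard errors of 44 of the 47 genes in the 4 comparisons, ordered by role from ligands to potentiators; filled points passed at an adjusted p below 0.05, and *Tcf7*, *Lef1* and *Rnf43*, with few counts, are left out. In the difference between B old and B young 4 points are filled, and *Wnt4* and *Fzd8* point the same way there and between C old and A young, whereas *Fzd9* does not.

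Beyond these genes, 87 further genes of the pathway were listed, of which 78 were in the table. For age within batch, 1 of 67 tested passed (1.49%, against 2.23% of all genes). This was *Reck*, a membrane protein that presents certain Wnt ligands to their receptors, with 118 and 108 CPM in B young and 47.7 and 58.65 CPM in B old (log2 fold change −1.08, SE 0.14, adjusted p = 0.00102). A young libraries held 105 to 143 CPM of *Reck* and C old libraries 104.5 to 112 CPM, so that only B old stood apart. Between B young and A young 14 of 66 passed (21.2%, against 18.1% of all genes; 2 higher and 12 lower), led by *Jag1* (−0.90, SE 0.15), *Rspo2* (−1.004, SE 0.19) and *Lgr5* (−1.91, SE 0.36). Between C old and B old 50 of 67 passed (74.6%, against 64.7%; 32 higher and 18 lower), led by *Tle2*, a co-repressor of TCF factors (2.37, SE 0.08), *Ccnd2* (−0.93, SE 0.07) and *Jag1* (1.29, SE 0.10). Between C old and A young 43 of 66 passed (65.2%, against 63.8%; 19 higher and 24 lower), led by *Tle2* (2.32, SE 0.11), *Ccn5* (−0.90, SE 0.07) and *Ccnd2* (−0.82, SE 0.07). *Tle2* and *Ccnd2* overlap antisense genes, by 98 and 740 exon bases.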

How the data were processed

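The deposited file holds raw counts for all 11 libraries, as whole numbers that the authors did not normalise. Per the methods of the study, which describe an oxygen comparison and are assumed to hold for these libraries too, MSCs of wild-type male mice were sorted as CD45-, TER119-, Sca-1+ and CD140a+ cells from hind limb bones, and reads were processed with zUMIs, aligned with STAR to mouse GRCm38 and assigned to Ensembl genes with featureCounts. Whether strand was used or molecular identifiers were collapsed is not given in the sources used here, so that reads of overlapping genes can have been shared or lost.

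Groups were taken from the labels (age and batch). Ensembl identifiers were matched to GENCODE M21 on GRCm38 (28179 of 28222 genes), which also gave transcript lengths and exon overlaps. The 47 genes, the further pathway genes, the markers, the comparisons and the alternatives were chosen with earlier results of these data known. Tests of the counts used edgeR 4.0.16 (quasi-likelihood, R 4.3.3), after filterByExpr with a minimum count of 5, with TMM factors, two-sided, and with Benjamini-Hochberg adjustment over all genes tested and a threshold of 0.05. *Tcf7* was not tested in any comparison, *Lef1* only for age, and *Rnf43* not between B young and A young. The standard error was taken as the absolute log2 fold change over the root of F. The length and GC correction subtracted a loess surface (span 0.3) from log2 CPM (prior count 2) in each library before limma-trend (limma 3.58.1). Each result was also computed with DESeq2 1.42.0, with limma-trend, with no filter or a minimum count of 10, with total counts or RLE factors, with the replicate number as a block, without the batch term, in batch B alone, in a 4-group fit, and leaving out each library in turn.

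Values of every library were given for the genes called for age, the gene with the highest level of each role, and the 6 genes with the smallest p in each of the other comparisons; those shown for *Frzb*, *Axin2*, *Notum* and *Fzd4* were chosen after their values were seen. On simulated counts with 200 genes changed 2-fold, the edgeR fits recovered 91.5% (age, 16070 genes tested), 97% (B young against A young, 14733 genes), 92.5% (C old against B old, 15538 genes) and 99% (C old against A young, 14985 genes). Of the genes called there, 3.48 to 5.61% had not been changed. The changed genes were drawn only from genes with many counts in every library, and all genes had the same spread. These shares therefore do not cover genes with few counts, such as *Wnt4* (12 to 111 counts per library). Nor do they cover the spread of the B young libraries, which was wider by the chi-square but not by the distance over the pathway genes. Library totals and the lowest detectable level cover counting error only.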

Additional observations from a re-analysis of the deposited data

Results flagged for a closer look

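In the A young group of 4 libraries, 6 of the 46 genes looked at had 1 library whose gap to the nearest other library exceeded Dixon's critical value of 0.829 for the share of the whole range. Chance alone flags about 1 in 20 groups. *Fzd5* (213.8 CPM, others 153 to 157 CPM) and *Lrp6* (574.1 CPM, others 430 to 438 CPM) were high in replicate 2. *Notum* (3.047 CPM, others 1.94 to 1.98 CPM) and *Nkd2* (20.17 CPM, others 11.3 to 12.75 CPM) were high in replicate 1, and *Fzd7* was low there (119.7 CPM, others 133 to 136 CPM). *Rnf43* had 0.1652 CPM in replicate 3 from 2 counts, with 0 counts in the others. No call of these genes between A young and another group was lost when the A young library named for that gene was left out. Groups of 2 and 3 libraries were not looked at.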

How the results depend on the processing

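For age within batch, 4 genes passed in the fit reported and 9 with DESeq2, 13 without a filter on low counts, 7 with the length and GC correction, 9 without a batch term, 2 in batch B alone, and 0 to 15 when each library was left out. RLE factors, total counts and a minimum count of 10 gave 4 genes, and limma-trend 3. *Fzd9* passed in batch B alone but not without the batch term (adjusted p = 0.435), *Wnt4* the reverse (0.0716 in batch B alone), and *Fzd8* in neither (0.0893 without the batch term, 0.11 in batch B alone). *Tcf7l1* also failed with limma-trend (adjusted p = 0.0501), total counts (0.0604), the replicate block (0.0748), no batch term (0.0799) and batch B alone (0.22). The count between B young and A young ranged from 4 to 18 over left-out libraries, that between C old and B old from 31 to 34 and that between C old and A young from 26 to 31. The cause of these shifts was not tested. For none of the alternatives is the share of all genes that passed given, so that a change in count need not be particular to these genes.

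Signs changed between C old and B old under the length and GC correction for *Wnt5a* (−0.0874), *Fzd1* (−0.0938), *Fzd7* (−0.00251), *Lrp4* (−0.0964) and *Lrp5* (−0.0645). Between C old and A young they changed with total counts for *Dkk3* (0.289), *Axin1* (0.225) and *Tcf7l2* (0.0544), and with the length and GC correction for *Wnt5a* (−0.188). Signs of called genes did not change in the other alternatives run.

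The replicate numbers of the labels were not taken to pair the libraries, since nothing in the labels ties them to a shared animal or day. The correlation of deviations of same-numbered libraries was 0.0365 between B young and B old, 0.00149 to 0.0439 between A young and C old, and highest between A young and B old (0.133 and 0.135). Between A young and C old, 4 of 6 libraries correlated best with their own number. With the replicate number as a block, 3 genes passed for age, 10 between B young and A young, 33 between C old and B old, and 31 between C old and A young. Depth limits statements on *Tcf7*, *Lef1* and *Rnf43*.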
